A study of Mus musculus with 6 samples.

Results

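Selenoproteins carry selenocysteine, an amino acid with selenium in place of the sulphur of cysteine. The genes described here are 10 selenoprotein genes of the liver, found by their gene symbols among the 56674 rows of the deposited read count table: Gpx1, Gpx4, Selenop, Selenof, Selenok, Selenow, Msrb1, Txnrd1, Dio1 and Sephs2. Each of the 10 symbols stood on 1 row, and all 10 passed the filter on low counts, as did 18043 rows in all. They were measured in liver RNA of male C57BL/6 mice reared for 71 weeks and given 1 of 2 diets, normal chow or chow with polyethylene microplastic (PE-MP), with 3 libraries per chow. The labels name no transgene, no dose, particle size or length of feeding of the plastic and no batch, nor do they tie each library to its own mouse, and p-values therefore reflect only library-to-library spread, possibly technical. The comparison asks whether these mRNAs differed between the chows.

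Selenocysteine is read from the codon UGA, which otherwise ends translation. The ribosome reads through it when a hairpin in the 3′ untranslated region of the mRNA recruits the binding protein SECISBP2, the elongation factor EEFSEC and a dedicated tRNA, whose amino acid is made on the tRNA from selenophosphate. The liver takes up dietary selenium and secretes selenoprotein P, the plasma carrier that supplies other organs. When selenium is short, the UGA may be read as a stop too early, and some selenoprotein mRNAs, Gpx1 and Selenow among them, are then degraded by nonsense-mediated decay, a process favoured by an exon junction downstream of the stop.

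The codon that defines these genes is given here in the coding strand of the reference transcript of each gene (GENCODE M21, build GRCm38), as DNA and 5′ to 3′, for the genes whose values differ most in the results and for those that show where the codon can stand. Capitals mark the selenocysteine TGA on which each window is centred, with up to 30 coding bases on either side. The window of the eighth Selenop codon (codon 368) also holds the selenocysteine codons 366, 375 and 377, in lower case.
Gpx1: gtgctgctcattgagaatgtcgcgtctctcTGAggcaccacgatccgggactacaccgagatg
Gpx4: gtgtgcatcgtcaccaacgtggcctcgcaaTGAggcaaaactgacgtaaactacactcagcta
Selenow: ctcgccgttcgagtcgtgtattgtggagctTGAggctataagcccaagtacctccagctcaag
Selenop, first: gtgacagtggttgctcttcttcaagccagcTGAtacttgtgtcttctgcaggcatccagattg
Selenop, eighth: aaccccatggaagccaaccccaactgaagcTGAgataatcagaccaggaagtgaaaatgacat
Txnrd1: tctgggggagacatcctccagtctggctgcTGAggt
Dio1: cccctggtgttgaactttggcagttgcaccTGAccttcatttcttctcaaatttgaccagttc

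Counted from the start codon, the TGA was codon 47 of 201 in Gpx1, 73 of 197 in Gpx4, 13 of 88 in Selenow and 126 of 257 in Dio1. In Txnrd1 it was codon 498 of 499, so the TGA and 1 more codon close the frame. Selenop held 10 such codons, from codon 59 to codon 377 of 380, and the other 9 genes held 1 each. The base after the TGA was G in 8, C in 6, A in 4 and T in 1 of the 19 codons of the 10 genes. An exon junction lay downstream of the first TGA in 8 of the 10 genes. The last junction was 357 bases away in Selenop, 342 in Gpx4, 303 in Dio1 and 243 in Selenow. It was 105 bases away in Gpx1, 78 in Selenof, 34 in Msrb1 and 5 in Selenok. Txnrd1 and Sephs2 had none. Of the 24 selenoprotein genes listed for the mouse, 15 had such a junction.

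The libraries held 68357478 to 112566641 counts, and the lowest count of any of the 10 genes in any library was 3119. Mitochondrially encoded genes took 14.2% to 15.1% of the counts under normal chow and 8.63% to 9.19% under PE-MP chow, and the ribosomal RNA gene Rn18s-rs5 took 11.2% in normal chow library 2 against 0.334% to 5.98% in the other 5. Of the 6 hepatocyte markers, Alb, Apoa1, Ttr, Cps1, Ass1 and Apob, all were abundant, with a summed level of 62048 to 73184 CPM (counts scaled to a common library total, with TMM factors) under normal chow against 66745 to 73909 under PE-MP chow, as a liver sample would have. In edgeR's quasi-likelihood test across 18043 genes, 1 gene (0.00554%) passed an adjusted p of 0.05 upwards and 0 (0%) downwards. At an unadjusted p under 0.05, 9.1% of genes were higher and 8.82% lower under PE-MP chow (17.9% in all), and the 2 chows did not overlap in 14.2% of genes in the upward and 11.8% in the downward direction (26% in all). The log2 fold change was negative for 8722 of the 18043 genes and positive for 9321. These values are the background for the counts that follow.

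In edgeR 0 of the 10 genes passed the adjusted threshold in either direction, and in limma-voom also 0 (background 0.0333% higher and 0.0499% lower), whereas DESeq2 called 2 lower (background 2.47%) and 0 higher (2.55%). At an unadjusted p under 0.05, 3 of the 10 (Gpx4, Selenow and Selenok) were lower and 0 higher, against 8.82% and 9.1% of all genes (17.9% in either direction). In TMM-scaled levels the 6 libraries separated completely by chow in 4 genes that were lower under PE-MP chow (these 3 and Selenof). They also did in 1 that was higher (Selenop), where 11.8% and 14.2% of all genes separated in these directions (26% in either). The log2 fold change of PE-MP chow over normal chow was negative for 9 of the 10, with a median of -0.32, while the median over all genes tested was 0.018. The fold changes ran from -0.99 for Gpx4 to 0.27 for Selenop.

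**Figure D1:**
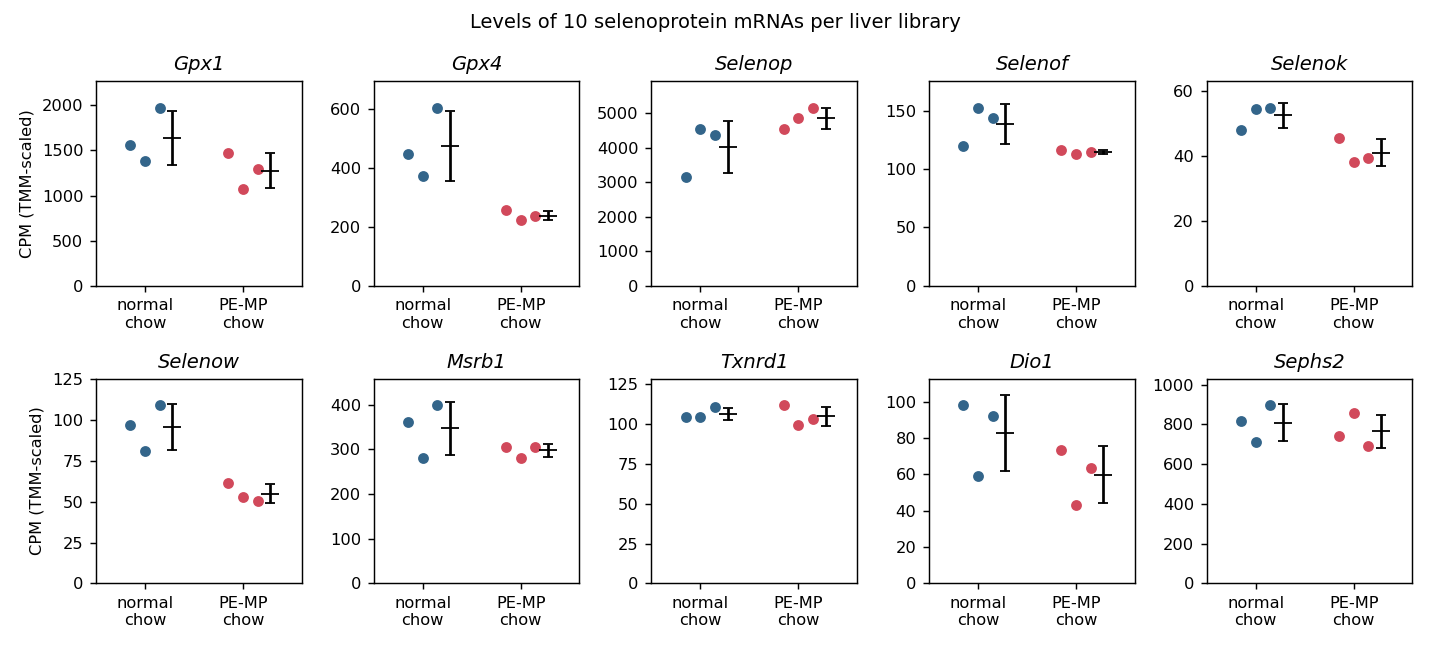
Level of each of the 10 selenoprotein mRNAs in each library, in TMM-scaled CPM on a linear axis from 0, with normal chow in blue and PE-MP chow in red; the black mark and bar are mean and SD of 3 libraries. Gpx4 and Selenow lie lower in all 3 PE-MP libraries, Txnrd1 and Sephs2 overlap, and Selenop lies higher by a narrow margin.

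Among the glutathione peroxidases, Gpx4, which reduces lipid hydroperoxides within membranes and guards against ferroptosis, showed the lowest fold change of the 10. It stood at 448, 372 and 604 CPM in normal chow libraries 1, 2 and 3 against 255, 223 and 236 CPM in PE-MP libraries 1, 2 and 3. Every PE-MP library was below every normal chow library, and normal chow library 3 was the highest of all. The group means were 474 ± 118 and 238 ± 16.4 CPM (SD, n = 3 per chow), a 0.502-fold level. The log2 fold change was -0.99 ± 0.19 (SE), with a 95% interval of -1.45 to -0.54 and an edgeR adjusted p of 0.128 (unadjusted 0.00143). DESeq2 called the difference (adjusted p = 0.00158), as did edgeR without normal chow library 2 (adjusted p = 0.0338, log2 fold change -1.15), the library with the high ribosomal RNA share. Without normal chow library 3, its highest value, the log2 fold change was -0.79.

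Reads of Gpx4 can also be assigned to its processed copies, so its level is uncertain. The rows Gpx4-ps1 and Gpx4-ps2 together held 12.6% to 16.9% as many counts as Gpx4 under normal chow and 8.87% to 12.5% under PE-MP chow. The copy Gpx4-ps2 itself stood at 72.3 ± 27.5 CPM under normal chow against 25.1 ± 3.64 CPM under PE-MP chow (SD, n = 3 per chow). With the counts of both copies added to those of Gpx4, also tried only once the data had been seen, the log2 fold change was -1.05 (edgeR adjusted p = 0.127).

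Gpx1, the abundant soluble peroxidase of the cytosol and mitochondria, overlapped between the chows. Its levels were 1564, 1382 and 1974 CPM in normal chow libraries 1, 2 and 3 against 1468, 1072 and 1290 CPM in the PE-MP libraries. PE-MP library 1 lay above normal chow library 2. The log2 fold change was -0.36 ± 0.19 (SE; 95% interval -0.80 to 0.08; edgeR adjusted p = 0.355). The estimate was a 0.779-fold level, with no change inside the interval, and without normal chow library 3 the log2 fold change was -0.21 (range -0.47 to -0.21 with 1 library left out).

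The supply side of hepatic selenium is represented by Selenop and Sephs2. Selenop, the secreted carrier, had 3154, 4523 and 4356 CPM in normal chow libraries 1, 2 and 3 against 4530, 4845 and 5153 CPM in the PE-MP libraries. The groups were separated by the small gap between normal chow library 2 and PE-MP library 1, and normal chow library 1 was the low one. The log2 fold change was 0.27 ± 0.17 (SE; 95% interval -0.13 to 0.68; edgeR adjusted p = 0.438), and it ranged from 0.12, without normal chow library 1, to 0.36 as each library was left out in turn. The gene Ccdc152 lies on the opposite strand of Selenop and shares exon sequence with it, and the strand setting of the counting is not given, but Ccdc152 held 80 to 595 counts per library, or 0.0362% to 0.139% of those of Selenop. Sephs2, itself a selenoprotein, makes the selenophosphate from which selenocysteine is built. It stood at 818, 713 and 895 CPM under normal chow against 741, 858 and 693 CPM under PE-MP chow, overlapping throughout, with a log2 fold change of -0.08 ± 0.14 (SE; 95% interval -0.42 to 0.26; edgeR adjusted p = 0.794). With 1 library left out it ranged from -0.18 without PE-MP library 2 to -0.0040 without normal chow library 3.

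Selenow encodes a small thioredoxin-like protein whose mRNA is known to respond to selenium supply. It stood at 96.8, 81.1 and 109 CPM in normal chow libraries 1, 2 and 3 against 61.6, 52.6 and 50.7 CPM in the PE-MP libraries. All 3 PE-MP libraries lay below all 3 normal chow libraries, with means of 54.9 ± 5.83 and 95.6 ± 13.9 CPM (SD, n = 3 per chow), or 0.575-fold. Its log2 fold change was -0.80 ± 0.15 (SE), with a 95% interval of -1.15 to -0.44 and an edgeR adjusted p of 0.124 (unadjusted 0.00115). It was called by DESeq2 (adjusted p = 0.00225) and by edgeR without normal chow library 2 (log2 fold change -0.91, adjusted p = 0.0345). Over all genes, DESeq2 called 2.47% lower, and edgeR without that library called 3.27% lower. Msrb1, which reduces oxidised methionine in proteins, had 361, 281 and 398 CPM under normal chow against 306, 281 and 305 CPM under PE-MP chow, with the low normal chow library 2 level with the PE-MP libraries. Its log2 fold change was -0.22 ± 0.15 (SE; 95% interval -0.59 to 0.14; edgeR adjusted p = 0.48), and leaving out normal chow library 3 gave -0.11 while leaving out normal chow library 2 gave -0.36.

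Both members of the endoplasmic reticulum had slightly lower levels under PE-MP chow. Selenok, a membrane protein linked to protein palmitoylation and to the disposal of misfolded proteins, stood at 48.2, 54.6 and 55.0 CPM under normal chow and 45.7, 38.1 and 39.3 CPM under PE-MP chow. The groups did not overlap, and the log2 fold change was -0.36 ± 0.12 (SE; 95% interval -0.65 to -0.06; edgeR adjusted p = 0.216, unadjusted 0.0238). Selenof, a partner of the glycoprotein folding sensor UGGT1, stood at 120, 153 and 144 CPM under normal chow against 117, 113 and 115 CPM under PE-MP chow. These groups did not overlap either, with normal chow library 1 close to the PE-MP libraries, and the log2 fold change was -0.28 ± 0.12 (SE; 95% interval -0.57 to 0.02; edgeR adjusted p = 0.305).

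Txnrd1, the cytosolic thioredoxin reductase and a known target of the stress regulator NRF2, varied least of the 10 within normal chow. Its levels were 104, 104 and 110 CPM under normal chow and 112, 99.5 and 103 CPM under PE-MP chow. The groups overlapped, and the log2 fold change of -0.02 ± 0.10 (SE) had a 95% interval of -0.27 to 0.23 (edgeR adjusted p = 0.929). Dio1, which activates thyroid hormone by removing an iodine atom, varied most within both chows. It stood at 98.0, 59.2 and 92.0 CPM in normal chow libraries 1, 2 and 3 against 73.4, 43.0 and 63.3 CPM in the PE-MP libraries. In both chows library 2 was the lowest, and the groups overlapped through normal chow library 2. The log2 fold change was -0.47 ± 0.26 (SE; 95% interval -1.10 to 0.15; edgeR adjusted p = 0.391), and it was -0.28 without PE-MP library 2 and -0.67 without normal chow library 2. The SD of log2 levels was 0.39 within normal chow and 0.40 within PE-MP chow for Dio1, against 0.049 and 0.085 for Txnrd1, and within PE-MP chow Selenof (0.024) and Msrb1 (0.071) varied less than Txnrd1.

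**Figure D2:**
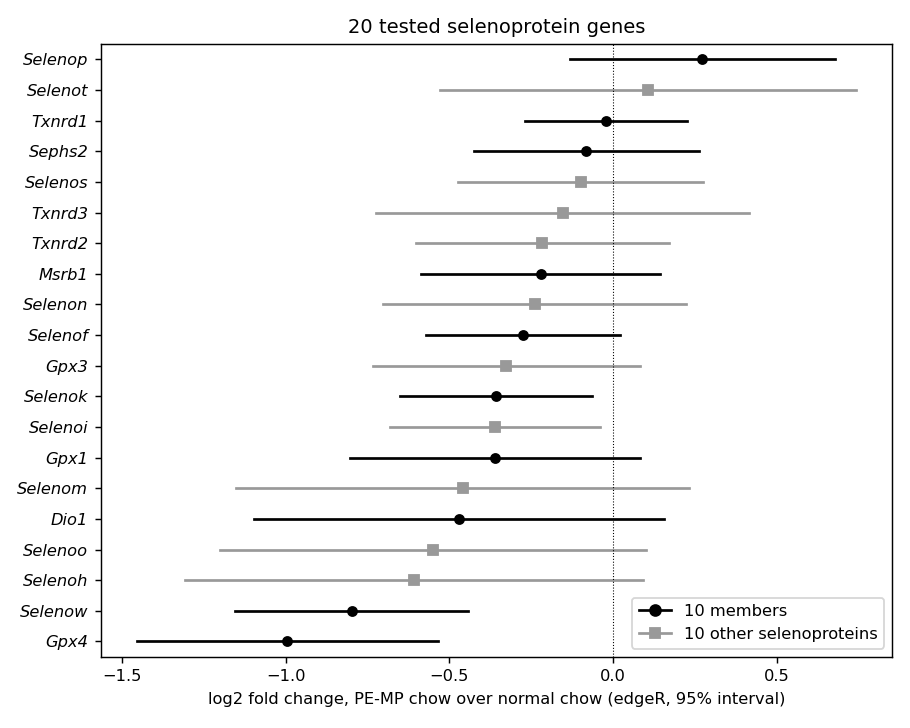
Log2 fold change of PE-MP chow over normal chow with its 95% interval (edgeR) for the 20 selenoprotein genes tested, the 10 described genes in black and 10 further selenoproteins in grey. Of the 20 estimates, Selenop and Selenot lie above 0, and the intervals of Gpx4, Selenow, Selenok and Selenoi lie wholly below it.

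The scaling of the libraries sets where 0 lies for each of these values. With total counts alone in place of TMM factors, the median of all genes moved from 0.018 to 0.32 and each of the 10 fold changes moved up by about the same amount. Gpx4 then stood at -0.69 and Selenow at -0.50, still negative, Selenok at -0.06 and Selenop at 0.58. Selenof, Msrb1, Txnrd1 and Sephs2 turned positive at 0.03, 0.08, 0.28 and 0.22. Under that scaling the 9 genes other than Selenop, these 4 included, lay below the median of all genes, and Selenop lay above it. As shares of total counts Selenof and Selenok overlapped between the chows, so their separation holds under TMM factors and not under total counts. Differences between 2 members are free of this choice and are given as ratios of counts within each library. Such ratios are not free of the trend with transcript length described further below.

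**Figure D3:**
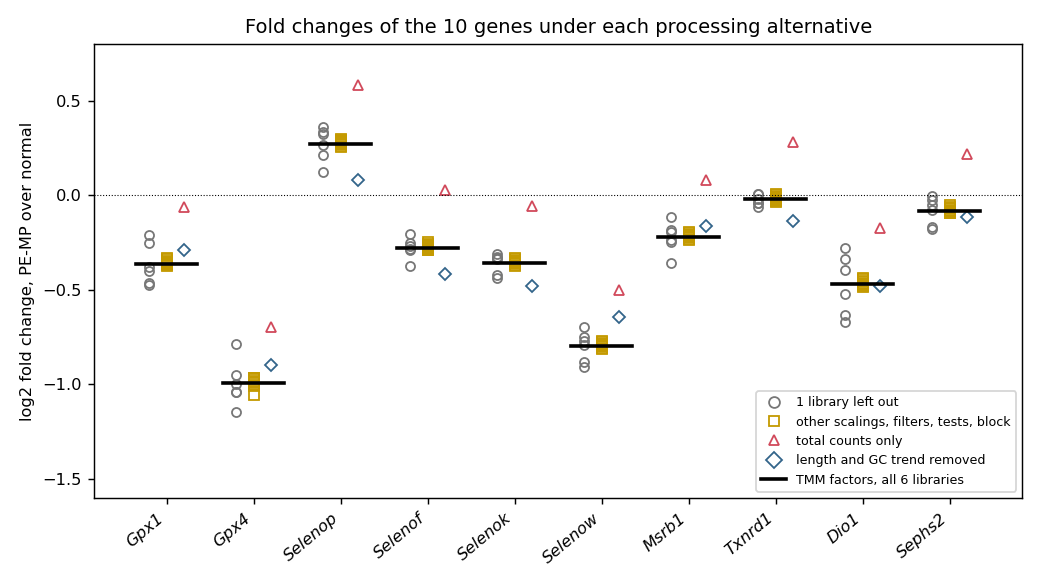
Log2 fold change of each of the 10 genes under each processing alternative, with the black bar showing TMM factors and all 6 libraries. Red triangles, for total counts only, lie above the other points for all 10 genes, and Gpx4 and Selenow stay below 0 under every setting plotted.

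Ratios of counts within a library separated the chows for several pairs that include Gpx4. The log2 ratio of Gpx4 to Selenop counts was -2.82, -3.61 and -2.85 in normal chow libraries 1, 2 and 3 against -4.15, -4.44 and -4.45 in the PE-MP libraries, so the groups did not overlap and their means differed by -1.26. The ratio of Gpx4 to Txnrd1 was 2.10, 1.84 and 2.45 under normal chow and 1.19, 1.16 and 1.20 under PE-MP chow, nearly constant in the latter. The ratio of Gpx1 to Gpx4 was 1.80, 1.89 and 1.71 under normal chow and 2.52, 2.27 and 2.45 under PE-MP chow. The ratio of the 2 peroxidases thus did not overlap between the chows, while the ratio of Gpx4 to Selenow overlapped (means 2.29 and 2.12). Of the 45 pairs among the 10 genes, 19 had ratios that did not overlap between the chows, where 25.6% of all pairs of genes with a mean of at least 10 CPM did. The pairs share genes, so they are not independent of each other or of the values of the single genes.

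**Figure D4:**
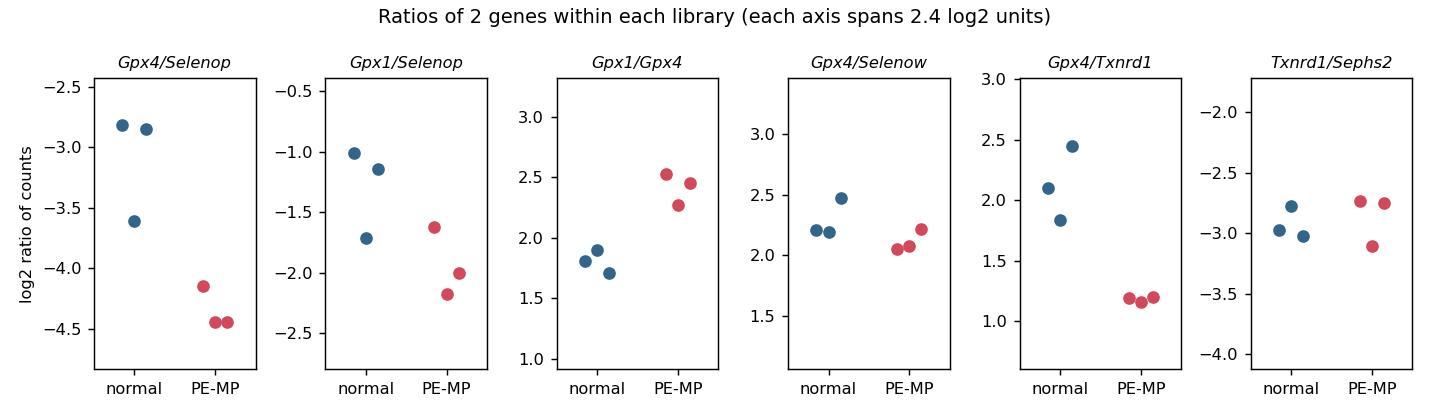
Log2 ratio of the counts of 2 selenoprotein genes within each library, for normal chow (blue) and PE-MP chow (red); each vertical axis spans 2.4 log2 units. Gpx4 over Selenop and Gpx4 over Txnrd1 are lower and Gpx1 over Gpx4 higher in all 3 PE-MP libraries, whereas Txnrd1 over Sephs2 overlaps.

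The order of levels can be read per kilobase of transcript. Under normal chow Selenop was highest at 1924 ± 358 CPM per kilobase (SD, n = 3), followed by Gpx1 at 1530 ± 283, Gpx4 at 495 ± 123, Sephs2 at 372 ± 42.2 and Msrb1 at 286 ± 49.4. Selenow (130 ± 18.9), Selenof (91.7 ± 11.2), Dio1 (49.1 ± 12.4), Selenok (31.3 ± 2.28) and Txnrd1 (30.1 ± 1.03) came below. Neighbours overlapped across the normal chow libraries between Selenop and Gpx1, Gpx4 and Sephs2, Sephs2 and Msrb1, and Selenok and Txnrd1. Within each normal chow library, however, Selenop stood above Gpx1, Gpx4 above Sephs2 and Sephs2 above Msrb1. Selenok and Txnrd1 changed order between these libraries. In each PE-MP library Sephs2 stood above Gpx4. Under PE-MP chow Selenop at 2323 ± 149 CPM per kilobase no longer overlapped Gpx1 at 1191 ± 185, and Gpx4 at 248 ± 17.1 stood beside Msrb1 at 245 ± 11.9. Lengths are those of 1 reference transcript per gene, so the order depends on that choice.

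**Figure D5:**
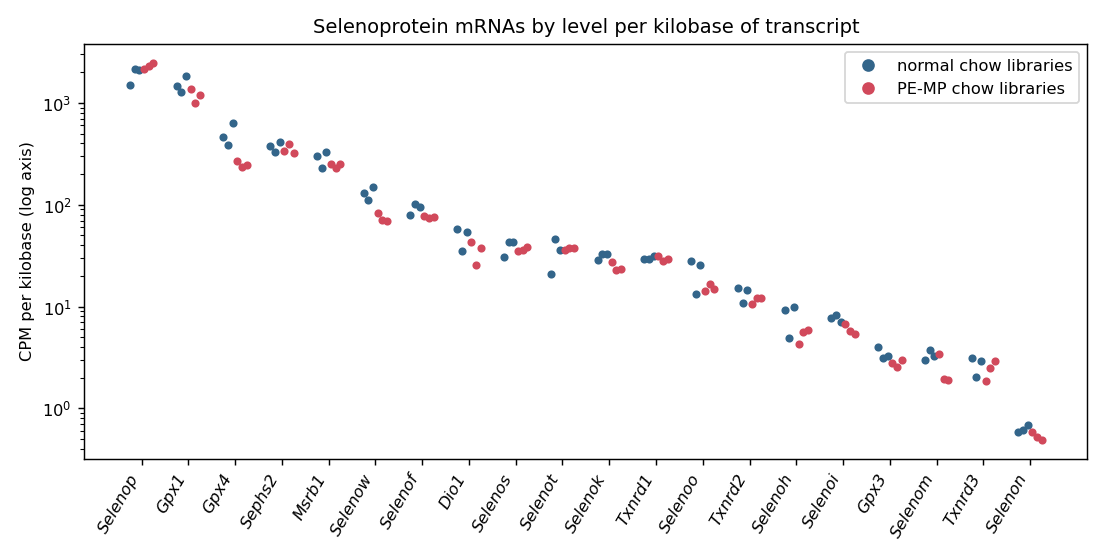
Level of the 20 most abundant selenoprotein mRNAs in CPM per kilobase of transcript on a log axis, with 3 libraries per chow. Selenop and Gpx1 lie above all others in every library, and Selenon, with means of 0.632 and 0.535, is the lowest shown.

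Selenop and Gpx1 together dominated the selenoprotein mRNA of these livers. Selenop took 33.2%, 44.7% and 36.0% of selenoprotein transcripts (levels per kilobase, 24 genes) in normal chow libraries 1, 2 and 3 against 45.5%, 51.4% and 51.0% in the PE-MP libraries. Weighted by the number of selenocysteine codons, it held 83.2% to 89.0% of all such codons under normal chow and 89.3% to 91.3% under PE-MP chow. The share of Gpx1 among these codons was 5.29% to 8.03% and 3.93% to 5.63%. These are shares of mRNA, not of protein made, and a higher share of Selenop lowers those of the other genes. The 10 genes together took 0.629%, 0.679% and 0.786% of all counts under normal chow and 0.826%, 0.831% and 0.942% under PE-MP chow. The mitochondrial share of the counts was lower in the same 3 libraries. With mitochondrial genes and Rn18s-rs5 left out of the total the shares were 0.764%, 0.938% and 0.949% against 0.985%, 0.953% and 1.05%. Selenop alone held 44.4%, 56.1% and 48.0% of the counts of all 24 selenoprotein genes under normal chow and 56.7%, 61.2% and 61.8% under PE-MP chow. The summed shares therefore follow Selenop more than any other gene. With total counts only, its log2 fold change was 0.58, the highest of the 10, and that of Gpx1 was -0.06.

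Transcript length moved with the fold changes among the 17140 tested genes with a matched length. Divided into 4 equal classes by transcript length, genes of the shortest class, up to 1452 bases, had a median log2 fold change of -0.20, and those of the longest class, above 4071 bases, one of 0.16. The transcripts of Gpx4 (959 bases), Selenow (736), Gpx1 (1072) and Msrb1 (1211) fall in that shortest class, and that of Selenop has 2085 bases. With a trend on length and GC content taken out of each library, which was tried only once the data had been seen, the log2 fold change was -0.90 for Gpx4 (edgeR adjusted p = 0.0893), -0.64 for Selenow (adjusted p = 0.0938), -0.29 for Gpx1 and 0.08 for Selenop, while the median of all genes there was -0.097. None of the 10 was called in that fit, in which 2 of all genes (0.0116%) were called higher and 0 lower. The log2 fold changes of Selenof and Selenok were -0.42 and -0.48 there, against -0.28 and -0.36 without the trend removed. The median of all genes also moved down, from 0.018 to -0.097, so these 2 values partly follow where 0 lies.

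Of the other 14 selenoprotein genes, 10 passed the filter on low counts, and 0 of these passed the adjusted threshold. The log2 fold change was negative for 9 of the 10, from -0.61 to 0.11 with a median of -0.28. The chows did not overlap in 3, all lower under PE-MP chow, against the 11.8% of all genes. These were Selenoi, an enzyme of phosphatidylethanolamine synthesis (52.1 ± 4.33 against 40.6 ± 5.05 CPM), Gpx3, the peroxidase of plasma (5.54 ± 0.714 against 4.42 ± 0.358 CPM), and Selenon, a protein of the endoplasmic reticulum (2.18 ± 0.187 against 1.84 ± 0.182 CPM; SD, n = 3 per chow). Selenoo had a log2 fold change of -0.55 (edgeR adjusted p = 0.339) and was called without normal chow library 2 (-0.82, adjusted p = 0.0345), and it was at -0.35 without normal chow library 1. The mitochondrial and testis thioredoxin reductases Txnrd2 and Txnrd3 had log2 fold changes of -0.22 ± 0.16 and -0.15 ± 0.24 (SE), close to that of Msrb1. Selenom was at -0.46 ± 0.29, Selenos at -0.10 ± 0.16 and Selenot at 0.11 ± 0.27 (SE). Single libraries moved these values, with Selenom at -0.79 without PE-MP library 1, Selenos at -0.25, -0.022 and -0.024 without normal chow libraries 1, 2 and 3 in turn, and Txnrd2 at -0.12 and -0.36 without normal chow libraries 1 and 2 in turn. The 4 genes below the filter were Gpx2, with 0 to 6 counts per library, Dio2, with 0 to 6, Dio3, with 0 to 10, and Selenov, with 0 in all 6 libraries. The 4 mRNAs listed as most responsive to selenium supply, Gpx1, Selenow, Selenoh and Msrb1, had negative log2 fold changes with a median of -0.49, but 0 of the 4 passed the adjusted threshold. The chows overlapped in Gpx1, Selenoh and Msrb1 and did not in Selenow, where 11.8% of all genes were lower without overlap. All 4 transcripts belong to the shortest length class, whose median was -0.20, and Msrb1 was positive with total counts only (0.08). Selenoh stood at -0.61 ± 0.29 (SE; edgeR adjusted p = 0.328).

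The machinery that makes and inserts selenocysteine showed no common direction. Of its 13 tested genes 7 had positive and 6 negative log2 fold changes, the median was 0.03, and 0 passed the adjusted threshold. The smallest p belonged to Secisbp2, which binds the hairpin of selenoprotein mRNAs, at 11.9 ± 0.520 CPM under normal chow against 15.5 ± 2.06 under PE-MP chow (SD, n = 3 per chow; log2 fold change 0.38 ± 0.14, edgeR adjusted p = 0.24). Next were Alkbh8, which modifies the selenocysteine tRNA (0.85 ± 0.38), and Eif4a3, a component of the exon junction complex (-0.30 ± 0.15). The elongation factor gene Eefsec stood at -0.31 ± 0.18 and Sepsecs, the last enzyme of selenocysteine synthesis, at 0.30 ± 0.16 (SE). Among 6 genes of selenium uptake, release and binding, 5 were tested and 0 passed. Selenbp2, a selenium-binding protein that is not a selenoprotein, had the smallest p, at 52.7 ± 3.73 against 26.9 ± 2.99 CPM (SD; log2 fold change -0.97 ± 0.13, edgeR adjusted p = 0.0741). Its close paralog Selenbp1 followed at -0.58 ± 0.23, and reads shared between the 2 could be divided by the counting. Lrp1, a lipoprotein receptor of hepatocytes, was at 0.12 ± 0.17 (SE), and Lrp8, the receptor for selenoprotein P outside the liver, was below the filter.

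Relatives that use cysteine in place of selenocysteine were also measured. Of 6 tested, 5 had negative log2 fold changes, the median was -0.40 and 0 passed the adjusted threshold. In 3 of the 6 the chows did not overlap, all lower under PE-MP chow, against 11.8% of all genes. At an unadjusted edgeR p under 0.05, 3 were lower, against 8.82% of all genes, so lower values were not particular to selenoproteins. Msra, which repairs the other stereoisomer of oxidised methionine than Msrb1 does, stood at 180 ± 33.2 CPM under normal chow against 128 ± 1.12 CPM under PE-MP chow (log2 fold change -0.49 ± 0.16, edgeR adjusted p = 0.196), Gpx7 had -0.81 ± 0.28 and Msrb2 -0.41 ± 0.15 (SE). Of 13 thioredoxin and glutathione partners 12 were negative, with a median of -0.21, and again 0 passed. Txn1, the substrate of Txnrd1, stood at 182 ± 19.9 and 125 ± 6.95 CPM (SD, n = 3 per chow; log2 fold change -0.54 ± 0.12, edgeR adjusted p = 0.138). Txndc12 was at -0.33 ± 0.11 and Gsr, the glutathione reductase that restores the cosubstrate of the peroxidases, at -0.49 ± 0.19 (SE).

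Around Gpx4, 10 genes of lipid peroxidation and iron storage were tested and 0 passed, with 7 negative and a median of -0.19. Those with the smallest p were the transferrin receptor Tfrc, at 6.84 ± 0.602 under normal chow against 12.7 ± 3.28 CPM under PE-MP chow (SD; log2 fold change 0.90 ± 0.21, edgeR adjusted p = 0.139), and the ferritin chains Ftl1 (-0.50 ± 0.16) and Fth1 (-0.44 ± 0.15). Acsl4, which activates polyunsaturated fatty acids to their acyl-CoA forms, was at -0.02 ± 0.25 (SE). Around Selenof and Selenok, 9 genes of the endoplasmic reticulum were tested and 0 passed, with a median of -0.07. Their smallest p belonged to Uggt2 (0.62 ± 0.26), Derl2 (-0.21 ± 0.10) and Derl1 (-0.25 ± 0.13), and Uggt1 was at -0.09 ± 0.20 (SE).

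Around Dio1, 10 genes of thyroid hormone transport and action were tested. In edgeR 0 passed the adjusted threshold, and at an unadjusted p under 0.05, 4 were lower (against 8.82% of all genes) and 1 higher (against 9.1%), with a median log2 fold change of -0.38. The nuclear corepressor gene Hr, a thyroid hormone target, stood at 1.76 ± 0.826 CPM under normal chow against 0.573 ± 0.0597 under PE-MP chow (SD; log2 fold change -1.62 ± 0.37, edgeR adjusted p = 0.135). Serpina7, which encodes thyroxine-binding globulin, stood at 14.0 ± 4.40 and 5.56 ± 1.90 CPM (-1.33 ± 0.33, adjusted p = 0.146). The receptor gene Thrb had a positive fold change, with 1.34 ± 0.890 and 4.57 ± 0.901 CPM (1.78 ± 0.46, adjusted p = 0.155). The other 2 on the lower side, Me1 (-1.10 ± 0.33) and Thrsp (-1.70 ± 0.61), are targets of the hormone and also lipogenic genes.

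Markers of other liver cells were measured beside these genes, and their part in the values above was not tested. In edgeR 0 markers of any list passed the adjusted threshold. The chows did not overlap in 3 of 6 Kupffer cell markers, 4 of 4 tested neutrophil markers, 1 of 5 T and NK cell markers and 1 of 3 erythroid markers (higher, against 14.2% of all genes), nor in 3 of 5 B and plasma cell markers, 2 of 3 tested adipocyte markers and 1 of 3 erythroid markers (lower, against 11.8%). They overlapped in all markers of sinusoidal endothelial cells, stellate cells and cholangiocytes. In bulk liver, fewer cells of a type and less RNA per cell cannot be told apart. The summed level of 6 Kupffer cell markers was 91.5 to 119 CPM under normal chow against 120 to 207 under PE-MP chow, a narrow gap, and that of 5 sinusoidal endothelial markers 72.4 to 89.4 and 99.98 to 128. Markers of B and plasma cells summed to 18.6 to 56.5 and 5.22 to 9.33 CPM, and those of neutrophils to 1.18 to 1.81 and 3.10 to 4.06, with Ly6g at 0 counts in all 6 libraries. Stellate cell, cholangiocyte, T and NK cell and erythroid sums overlapped between the chows, at 228 to 432, 12.4 to 26.9, 1.89 to 5.36 and 187 to 390 CPM over the 6 libraries. The adipocyte list summed to 16.4 to 69.5 under normal chow and 6.13 to 16.1 CPM under PE-MP chow. Most of that sum was Cidec, at 14.0 to 60.2 and 5.71 to 14.5 CPM. Adipoq, with 0 to 10 counts per library, and Plin1, with 0 to 7, were below the filter, so the sum says little about adipocytes. Each of the 10 genes had a level of at least 38.1 CPM in every library, and the 6 hepatocyte markers did not separate the chows.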

How the data were processed

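The authors deposited raw read counts per gene for 6 liver libraries, and per the submitters' processing notes bcl2fastq and build GRCm39 were used; the aligner, counting program, annotation and whether strand was used are each not given in the sources used here. Per the labels' protocols, total RNA was poly(A)-selected and made into strand-keeping libraries. The table of the series and the 6 single-library files held the same values. Genes were tested with the quasi-likelihood test of edgeR 4.0.16 under R 4.3.3, using TMM factors, robust dispersions and the default filter, over 18043 genes, two-sided, with Benjamini-Hochberg adjustment over all of them. Fold changes are unshrunk coefficients with their SE and 95% interval. Transcript lengths and coding sequences came from GENCODE M21 (GRCm38), matched by symbol for 95.0% of tested genes, and no coordinates are given. DESeq2 1.42.0, limma-voom 3.58.1, other factors and filters, each library left out in turn and the replicate number as a block were alternatives; length and GC trend removal (mgcv 1.9.3) and the addition of copies to Gpx4 were chosen after seeing the data. In 5 simulations with 17556 genes per fit on average, 11.8% of simulated 2-fold changes were called, and 72.4% of 4-fold changes. Of the calls made in these simulations, 7.91% were false. Named were all 24 selenoprotein genes, the up to 3 genes with the smallest p of each other list, the 3 genes most like Gpx1, Gpx4 and Selenop, and a few chosen for their role after values were seen (Gpx4-ps2, Ccdc152, Eefsec, Sepsecs, Lrp1, Lrp8, Acsl4, Uggt1, Me1, Thrsp). The members and lists were chosen with earlier results of these data known.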

Additional observations from a re-analysis of the deposited data

How the results depend on the processing

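Over all genes, edgeR called 1 higher and 0 lower, and these counts were 2 and 1 with RLE factors, 10 and 0 with total counts only, 6 and 9 with limma-voom, 552 and 534 with DESeq2, 15 and 8 with no expression filter, 11 and 11 with at least 1 CPM in all libraries of a chow, 24 and 29 at an adjusted p of 0.1, and 2 and 0 with the length and GC trend removed. Leaving out 1 library at a time gave 1 to 452 higher and 0 to 623 lower, the high ends both without normal chow library 2. Of the 10 selenoprotein genes, 2 were called lower by DESeq2 and 2 without that library (range 0 to 2 over the libraries left out), both times Gpx4 (-1.01 and -1.15) and Selenow (-0.81 and -0.91), and 0 were called higher under any setting. The causes were not tested. The share of all counts taken by the 10 genes differed between the chows by 0.168 percentage points, and by 0.131 to 0.213 with 1 library left out. Selenop was the largest part of that share.

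Signs turned with total counts only for Selenof (0.029), Msrb1 (0.079), Txnrd1 (0.28), Sephs2 (0.22), Txnrd2 (0.084), Txnrd3 (0.15), Selenon (0.059) and Selenos (0.21). Near 0, Txnrd1 turned with upper-quartile factors (0.0065), without normal chow library 3 (0.0051) and without PE-MP library 2 (0.0094), and Txnrd3 without PE-MP library 1 (0.011). With 1 library left out at a time, the range was -0.064 to 0.0094 for Txnrd1, -0.33 to 0.011 for Txnrd3 and -0.15 to 0.37 for Selenot. Selenot turned without normal chow library 1 (-0.15) and with the length and GC trend removed (-0.24).

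With the replicate number as a block, 0 genes were called higher and 0 lower, and Gpx4 stood at -0.97 and Selenow at -0.79 (edgeR adjusted p = 0.243 for both). Deviations of same-numbered libraries correlated at 0.0496, 0.085 and 0.183. Normal chow libraries 1 and 3 were each closest to the PE-MP library of the same number, and normal chow library 2 to PE-MP library 1 (0.105). These correlations are weak and the labels do not say that equal numbers share anything, so the numbers were not taken as pairs.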

Other observations

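Genes whose levels followed 3 of the selenoprotein mRNAs most closely were sought among 6766 other genes with a mean of at least 10 CPM, by the root mean square difference of log2 levels over the 6 libraries after each gene was centred on its mean. Closest to Gpx4 were Elob, which encodes a subunit of elongin (0.0958 log2 units; 82.6, 66.5 and 95.7 CPM in normal chow libraries 1, 2 and 3 against 48.5, 42.3 and 45.0 in the PE-MP libraries), Fam221b (0.0961) and mt-Co3, a mitochondrially encoded subunit of cytochrome oxidase (0.0991; 4816 to 6854 CPM under normal chow and 2673 to 2753 under PE-MP chow). Closest to Gpx1 were Commd1 (0.0476), Atp6v0e (0.0673) and Mrpl22 (0.0746), and closest to Selenop were Ndufaf4 (0.0331), Uchl5 (0.0404) and Dipk2a (0.0490).

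Among the 10 selenoprotein genes themselves, the closest pair by the same measure was Selenof and Selenok (0.0946 log2 units), followed by Gpx1 and Msrb1 (0.137) and Gpx4 and Selenow (0.137). The most distant pair was Gpx4 and Selenop (0.685). With 6 libraries such distances are a description of these samples.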
